A study of Rattus norvegicus with 88 samples.

Results

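The genes described here are 5 genes that mark astrocytes or clear glutamate, Gfap, Aqp4, Slc1a2, Slc1a3 and Gja1. They were chosen by name from the 17123 genes measured and not by a cut on their values, but with earlier results of these data known. Their Ensembl identifiers were ENSRNOG00000002919, ENSRNOG00000016043, ENSRNOG00000005479, ENSRNOG00000016163 and ENSRNOG00000000805, and all 5 had a row. The libraries were made from polyadenylated RNA of the orbitofrontal cortex. The animals were heterogeneous stock (HS) rats, which are outbred and go back to crosses of inbred founder strains. The rats were of both sexes, were housed in groups and had received no behavioural or drug treatment. Tissue of both hemispheres was dissected from frozen sections and pooled for each rat, so that a library stands for 1 rat. The age of each rat was not among the labels. There were 80 libraries, 41 of them male and 39 female. The labels gave each rat a batch number, and the libraries are grouped by it. Batch 2 comprised 15 rats (11 male), batch 3 had 22 (10 male), batch 4 numbered 26 (12 male) and batch 6 contained 16 (8 male). Batch 5 was 1 female. What sets a rat batch apart (a litter, a shipment, a dissection or a sequencing run) is not stated in the labels.

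Astrocytes are the glial cells that take up transmitter after it is released at synapses, buffer ions and water, and contact blood vessels with their endfeet. Glutamate, the main excitatory transmitter of cortex, is removed from the extracellular space mostly by transporters in astrocyte membranes, which carry it inward together with sodium. Slc1a2 encodes GLT-1 (also called EAAT2), the main glutamate transporter of the adult forebrain, and Slc1a3 encodes GLAST (EAAT1), a related glutamate and aspartate transporter. Gfap encodes the intermediate filament protein of the astrocyte cytoskeleton and is widely used as a sign of astrocyte reactivity. Aqp4 encodes the water channel of astrocyte endfeet, and Gja1 encodes connexin 43, the gap junction protein that couples astrocytes to one another. In a piece of bulk tissue, fewer cells of a type and less RNA per cell cannot be told apart.

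Start regions of 4 of the genes are shown. Slc1a3 and Gja1 moved together from rat to rat while Gfap and Slc1a2 did not, as the values further on describe. By Pearson correlation the closest pair was Aqp4 and Gja1, and the window of Aqp4 is described below without its letters. Each window runs 5' to 3' on the strand of the gene, from 250 bases before to 50 bases after its most upstream RefSeq start, and is 300 bases long. Capitals mark matches to the motifs named after the sequences. On build GRCr8 the windows lie at chr10:88361612-88361911 (minus strand) for Gfap, chr3:109459859-109460158 (plus strand) for Slc1a2, chr2:59557759-59558058 (minus strand) for Slc1a3 and chr20:36302314-36302613 (plus strand) for Gja1.
Gfap: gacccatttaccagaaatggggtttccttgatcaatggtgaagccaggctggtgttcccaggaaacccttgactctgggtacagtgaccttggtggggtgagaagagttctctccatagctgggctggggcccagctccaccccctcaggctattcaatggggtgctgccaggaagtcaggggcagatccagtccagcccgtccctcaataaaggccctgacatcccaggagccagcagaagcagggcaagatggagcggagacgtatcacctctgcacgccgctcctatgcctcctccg
Slc1a2: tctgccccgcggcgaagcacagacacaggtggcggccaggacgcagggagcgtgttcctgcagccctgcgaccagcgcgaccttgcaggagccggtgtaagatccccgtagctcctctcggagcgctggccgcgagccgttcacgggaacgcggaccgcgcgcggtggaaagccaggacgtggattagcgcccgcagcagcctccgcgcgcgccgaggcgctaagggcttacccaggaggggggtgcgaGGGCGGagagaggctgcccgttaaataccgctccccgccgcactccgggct
Slc1a3: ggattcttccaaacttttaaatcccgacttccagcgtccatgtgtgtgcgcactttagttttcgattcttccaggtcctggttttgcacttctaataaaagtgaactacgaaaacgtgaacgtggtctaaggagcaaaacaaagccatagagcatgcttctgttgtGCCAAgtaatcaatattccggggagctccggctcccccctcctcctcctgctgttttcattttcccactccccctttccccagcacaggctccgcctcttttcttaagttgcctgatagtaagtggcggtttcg
Gja1: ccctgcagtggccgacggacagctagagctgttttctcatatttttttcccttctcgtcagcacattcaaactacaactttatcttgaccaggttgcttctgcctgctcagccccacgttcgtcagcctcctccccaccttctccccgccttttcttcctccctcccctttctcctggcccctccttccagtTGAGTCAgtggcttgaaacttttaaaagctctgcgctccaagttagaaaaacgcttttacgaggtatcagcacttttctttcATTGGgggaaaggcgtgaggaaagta

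The windows differed most in base composition. The Slc1a2 window was 71% G and C and held 39 CpG dinucleotides, against medians of 51.7% and 7 over 33469 such windows in RefSeq. The Gfap window was 58.7% G and C with 6 CpG, the Slc1a3 window 48.3% with 12 and the Gja1 window 50.3% with 10. Each window was searched on both strands for the TATA box (TATAAA), the GC box (GGGCGG), the NFI site (TTGGC), the STAT site (TTCNNNGAA), the SOX site (AACAAT), the AP-1 site (TGANTCA) and the CCAAT box (CCAAT). On the opposite strand a CCAAT box shares 4 letters with an NFI site. Counted from 1 at the 5' end, Slc1a2 held a GC box at 250, Slc1a3 an NFI site at 167 on the opposite strand, and Gja1 an AP-1 site at 193 and a CCAAT box at 275 on the opposite strand. The Gfap window held none of the 7. Among all windows 33.1% held a GC box, 45.8% an NFI site, 7.33% an AP-1 site, 37.5% a CCAAT box, 14.2% a TATA box, 8.87% a STAT site and 11.7% a SOX site. The motif of Slc1a3 was not in Gja1, nor those of Gja1 in Slc1a3. The window of Aqp4, which is not shown, held a GC box at 125 on the opposite strand and a CCAAT box at 231. It thus had a CCAAT box as Gja1 did and a GC box as Slc1a2 did. A match is a description of these letters only, and a link between the motifs and the levels of the genes was not tested.

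The depth recovered for a library, in units of 1000000 reads, was 5.68 to 25.6 with a mean of 18.0 (SD 3.66, n = 80), and the fewest reads behind a value of any of the genes were 223, for Slc1a2, where counting error alone is 6.70%. The columns of the table ran in alphabetical order in 3 stretches of 21, 13 and 46 libraries, and what the stretches mark was not stated in the sources used here. All libraries of batches 4, 5 and 6 stood in the third stretch, and of batch 2 all but 1 stood in the first. Batch 3 had 7 libraries in the first stretch, 12 in the second and 3 in the third. The identifiers of the other genes could not be matched to names, so other astrocyte genes and markers of neurons, oligodendrocytes, microglia and endothelium were not analysed here.

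All 5 genes were well above 0 in every rat, and they differed widely in how much they varied. Normalised read counts, which are upper-quartile adjusted and not divided by gene length, are given for each gene and are not compared between genes. Slc1a3 had 8913 in the lowest rat, a median of 12752 and 16214 in the highest, which is 1.82 times the lowest. Gja1 ran from 4015 through a median of 5292.5 to 8232, and Aqp4 from 3668 through 5369.5 to 8579. Gfap and Slc1a2 had the wider ranges. Gfap ran from 1060 through a median of 3038 to 5250, a 4.95-fold range, and Slc1a2 from 461 through 1346.5 to 2294, a 4.98-fold range. After rat batch and sex were taken out, the residual SD on the log2 scale was 0.44 for Gfap, 0.34 for Slc1a2, 0.25 for Aqp4, 0.18 for Gja1 and 0.15 for Slc1a3, against a median of 0.20 over the 14803 genes with a mean of at least 3 on that scale. Among 1000 genes of like mean, the SD of Gfap stood at percentile 99.3, that of Slc1a2 at 98.4, that of Aqp4 at 96.4, that of Gja1 at 88.5 and that of Slc1a3 at 77.8. The intermediate filament gene and the transporter GLT-1 thus varied more among rats than nearly all genes of their level, while GLAST did not.

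**Figure D1:**
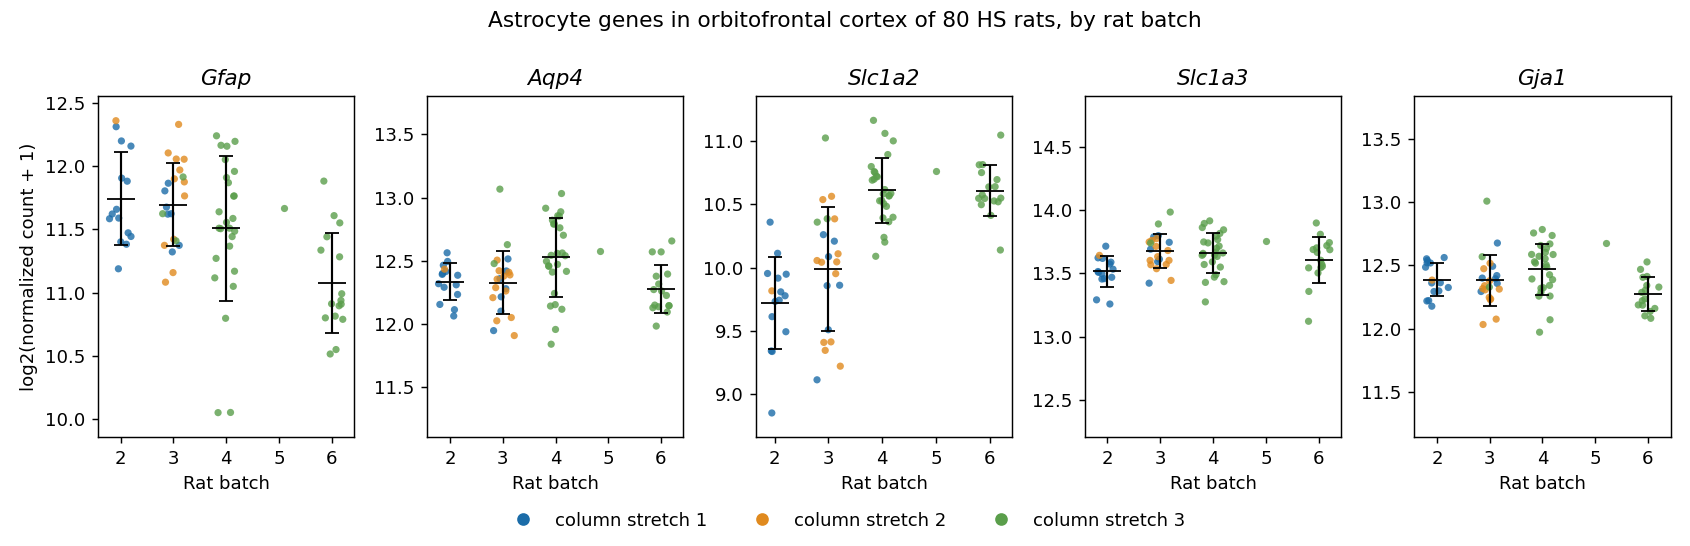
Log2 normalised counts of the 5 genes (vertical axis, one panel per gene) in each of the 80 rats, by rat batch (horizontal axis). Bars give the batch mean and SD, and points are coloured by column stretch. In normalised counts, Slc1a2 lies between 461 and 1313 in batch 2 and between 1127 and 2116 in batch 6, ranges that overlap only in part. The Slc1a3 values of all batches overlap.

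Levels were compared across batches 2, 3, 4 and 6 to see how far they moved with the batch of the rat. All 5 genes differed between batches at an adjusted p under 0.05 by limma, in a table where 64.7% of all genes did, so the call itself sets them little apart. The size of the difference was what separated them. The batch means of Slc1a2 spanned 0.89 on the log2 scale, those of Gfap 0.67, those of Aqp4 0.25, those of Gja1 0.20 and those of Slc1a3 0.16, where the median span over genes with a mean of at least 3 was 0.28. The spans of Slc1a2 and Gfap stood at percentiles 93.3 and 87 of those genes, and those of Aqp4, Gja1 and Slc1a3 at 44.1, 31.1 and 22.9. Once 20 principal components of the whole table were included as covariates, 0 of the 5 were called by limma (adjusted p from 0.518 to 0.884) and 0 had an unadjusted p under 0.05, where 0.00584% of all genes were called. These components were computed from the same values and accounted for 70.7% (Gja1) to 92.4% (Slc1a2) of the variance of the 5 genes. They can hold the batch difference itself, so this fit cannot decide whether a batch difference is present.

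Slc1a2 was lowest in batch 2 and higher in batches 4 and 6. Its normalised counts ran from 461 through a median of 877 to 1313 in batch 2 (log2 mean 9.72 ± 0.36, SD, n = 15), and from 553 through 1060 to 2083 in batch 3 (9.99 ± 0.49, n = 22). In batch 4 they ran from 1089 through 1535 to 2294 (10.61 ± 0.26, n = 26), and in batch 6 from 1127 through 1511.5 to 2116 (10.61 ± 0.20, n = 16). The highest rats of batch 2 overlapped the lowest of batches 4 and 6, and the medians of batches 4 and 6 lay above every rat of batch 2. After sex, batch 4 exceeded batch 2 by 0.94 ± 0.11 in log2 units (± SE, adjusted p = 1.6e-11 by limma, where 48.6% of genes differed) and batch 6 exceeded batch 2 by 0.93 (adjusted p = 4.32e-10, background 53.8%). Batches 4 and 6 exceeded batch 3 by 0.62 (limma adjusted p = 1.04e-07, background 42.9%) and 0.61 (adjusted p = 1.89e-06, background 50.9%). Batches 2 and 3 differed by 0.32 (adjusted p = 0.0581, background 9.79%), and batches 4 and 6 by -0.01 (adjusted p = 0.962, background 13.6%).

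The order of Slc1a2 followed the column stretch as closely as the batch. Of the 34 libraries in the first and second stretches, 26 lay below the lowest library of the third stretch, and of the 46 in the third, 26 lay above the highest of the others. Stretch alone accounted for 61.4% of its variance, batch alone for 55.6% and both for 61.9%, against medians of 16.7%, 22.1% and 27.7% over genes. Within batch 3 alone, the log2 level was 9.84 ± 0.41 (SD, n = 7) in the first stretch and 9.92 ± 0.47 (n = 12) in the second, and 10.59 ± 0.38 in the third, whose 3 rats had 1313, 1338 and 2083 normalised counts. That difference did not pass the test (limma adjusted p = 0.141, where 11.2% of genes did). Of the 22 fits that each left out 1 library, it passed in 1, without female replicate 21 of batch 3 (adjusted p = 0.0383). Without male replicate 20, the third-stretch rat with 2083 counts, the adjusted p was 0.47. Among the third-stretch rats, Slc1a2 differed between batches 4 and 6 by -0.01 (adjusted p = 0.969). With the stretch as a term in the model, the batch difference of Slc1a2 was no longer called (adjusted p = 0.735), and across batches 2, 4 and 6 the stretch and the batch cannot be told apart.

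Gfap was lowest in batch 6. Its normalised counts ran from 2332 through a median of 3149 to 5250 in batch 2 (log2 mean 11.74 ± 0.37, SD, n = 15) and from 2167 through 3373.5 to 5145 in batch 3 (11.70 ± 0.33, n = 22). They ran from 1060 through 2960.5 to 4833 in batch 4 (11.51 ± 0.57, n = 26) and from 1462 through 1943 to 3771 in batch 6 (11.08 ± 0.39, n = 16). Of the 16 rats of batch 6, 10 lay below every rat of batches 2 and 3. Batch 4 was not called against batch 2 (-0.20, limma adjusted p = 0.235) or batch 3 (-0.19, adjusted p = 0.217). Batch 6 differed from batch 2 by -0.64 ± 0.15 in log2 units (± SE, adjusted p = 0.000304 by limma), from batch 3 by -0.63 (adjusted p = 0.000111) and from batch 4 by -0.44 (SE 0.14, adjusted p = 0.0211). The last comparison lies wholly inside the third column stretch, where it gave -0.44 again (adjusted p = 0.0359, with 13.4% of genes called). The F test over batches 3, 4 and 6 inside that stretch did not pass for Gfap (adjusted p = 0.0653). With the stretch as a term in the model, batch 2 exceeded batch 6 in Gfap by 0.68 on the log2 scale, against 0.64 without it. The adjusted p of the limma F test over batches was then 0.0536.

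Aqp4 and Gja1, the endfoot water channel and connexin 43, were highest in batch 4 and lowest in batch 6 over all libraries, by smaller amounts. Aqp4 had a median of 5963 in batch 4 (3668 to 8375), 5352 in batch 2 (4281 to 6053), 5246.5 in batch 3 (3846 to 8579) and 4850.5 in batch 6 (4051 to 6458). Gja1 had a median of 5834 in batch 4 (4015 to 7047), 5265 in batch 2 (4629 to 6044), 5212 in batch 3 (4188 to 8232) and 4906 in batch 6 (4332 to 5900). The batches overlapped throughout for both genes. From batch 4 to batch 6, Aqp4 changed by -0.26 (limma adjusted p = 0.0153) and Gja1 by -0.20 (adjusted p = 0.0118), and within the third stretch the differences were -0.26 (adjusted p = 0.0264) and -0.20 (adjusted p = 0.0221). Aqp4 was also higher in batch 4 than in batch 2 by 0.22 (adjusted p = 0.0167) and than in batch 3 by 0.20 (adjusted p = 0.0136). Inside the third stretch, where batch 3 had 3 rats, batch 4 minus batch 3 was -0.16 for Aqp4 (adjusted p = 0.71) and -0.16 for Gja1 (adjusted p = 0.577), so that the direction was turned round and neither difference was called (background 0.0526%). Within batch 3, Aqp4 differed between column stretches (limma adjusted p = 0.0365), and this call was lost when any one of 4 libraries was left out. These were male replicate 1 (adjusted p = 0.0519), male replicate 2 (0.0517), female replicate 6 (0.113) and male replicate 20 (0.308). Gja1 (adjusted p = 0.0564) and Slc1a3 (0.0885) did not pass this test with all libraries. Gja1 passed it without male replicate 3 (0.0489), female replicate 23 (0.039) or male replicate 16 (0.00554), and Slc1a3 without female replicate 5 (0.0453) or male replicate 16 (0.0397). Without male replicate 20 the adjusted p was 0.253 for Gja1 and 0.386 for Slc1a3, the highest of the 22 such fits.

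Slc1a3, the GLAST transporter, was the steadiest of the 5. Its medians were 11705 in batch 2 (9797 to 13448), 13181.5 in batch 3 (10982 to 16214), 12943.5 in batch 4 (9911 to 15452) and 12725.5 in batch 6 (8913 to 15272). Batch 3 exceeded batch 2 by 0.15 on the log2 scale (limma adjusted p = 0.0455) and batch 4 exceeded batch 2 by 0.13 (adjusted p = 0.0201). Inside the first column stretch batch 3 exceeded batch 2 by 0.11, which was not called (adjusted p = 0.332, background 1.94%). The call across batches (adjusted p = 0.0344) was lost without male replicate 15 of batch 2 (0.0749), male replicate 16 of batch 2 (0.0704) or male replicate 20 of batch 3 (0.0533), whereas for the other 4 genes it held without any one library. Since the transporters moved by different amounts, the mean of their log2 difference within a library was not alike in all batches, as a description. Slc1a3 minus Slc1a2 averaged 3.80 for batch 2 and 3.69 for batch 3, against 3.05 for batch 4 and 3.00 for batch 6, and carries the gene lengths with it, so that its change between batches can be read and its level cannot. The single rat of batch 5 had log2 levels of 11.67 for Gfap, 12.58 for Aqp4, 10.76 for Slc1a2, 13.76 for Slc1a3 and 12.67 for Gja1.

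Males and females were compared with the batch held constant, and none of the 5 genes was called. This was 0 of 5 by limma, where 0.117% of genes were called, and 1 of 5 had an unadjusted p under 0.05. That gene was Slc1a2, at 0.17 higher in males on the log2 scale (unadjusted p = 0.0266, adjusted p = 0.612). The male minus female differences were 0.12 for Gfap (SE 0.10), 0.09 for Aqp4 (SE 0.05), -0.04 for Slc1a3 (SE 0.03) and 0.01 for Gja1 (SE 0.04), with adjusted p between 0.791 and 0.981. A difference in the sex effect between batches was not called for any of the 5 by limma (background 0%), with 1 of 5 at an unadjusted p under 0.05, again Slc1a2 (0.0083). In batch 3 its log2 mean was 9.73 ± 0.47 (SD, n = 12) in females and 10.29 ± 0.31 (n = 10) in males. No level was called for a slope with sequencing depth either (0 of 5 by limma, 0 of 5 at an unadjusted p under 0.05, background 0.274%).

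The genes were then compared across rats, to see whether their levels rose and fell together once the batch and sex means were removed. Of the 10 pairs, 9 had a positive correlation whose permutation p, with rats shuffled within batches, was under 0.05, and the same 9 were called by limma over all genes. The exception was Gfap with Slc1a2. A positive slope was called for 7.8% of genes on Gfap, 11.3% on Aqp4, 13% on Slc1a2, 12.3% on Slc1a3 and 12.3% on Gja1.

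Aqp4, Slc1a3 and Gja1 formed the closest group. Aqp4 with Gja1 gave Pearson r = 0.74 and Spearman rho = 0.64 over the 80 rats, Aqp4 with Slc1a3 r = 0.73 and rho = 0.70, and Slc1a3 with Gja1 r = 0.71 and rho = 0.70. Each had a two-sided permutation p of 1e-05, the smallest that 100000 permutations can give, and adjusted p of at most 1.52e-09 by limma. Without the 2 rats farthest from the median of either gene, r was 0.65 to 0.72. After 20 principal components were also removed, r fell to 0.48 for Aqp4 with Gja1 (permutation p = 1e-04), to 0.27 for Aqp4 with Slc1a3 (permutation p = 0.0177) and to 0.19 for Slc1a3 with Gja1 (permutation p = 0.0987). Among 14802 genes ordered by r, Gja1 was number 4 for Aqp4 and Aqp4 was number 2 for Gja1. Slc1a3 was number 9 for Aqp4 and number 8 for Gja1, and in the order for Slc1a3 itself Aqp4 was number 3 and Gja1 number 9. The water channel, the connexin and GLAST were therefore among the 10 nearest genes of one another in each direction.

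**Figure D2:**
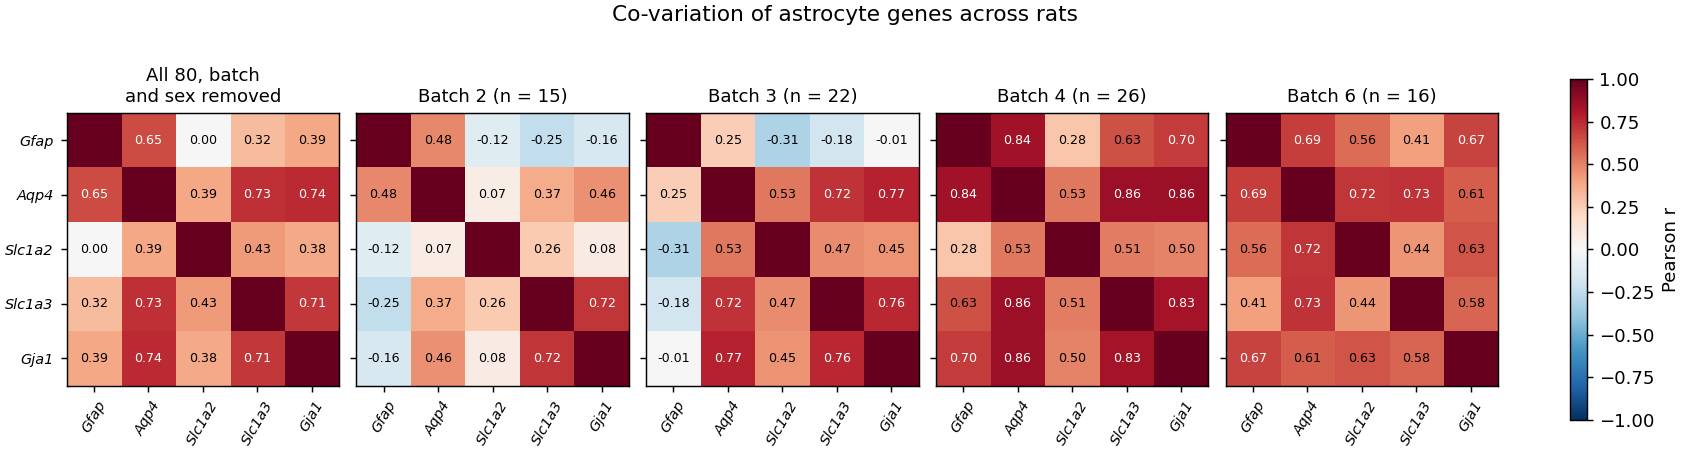
Pearson r of residuals after rat batch and sex for each pair of the 5 genes over 80 rats, with colour giving r. Aqp4, Slc1a3 and Gja1 have r of 0.71 to 0.74 with one another, and Gfap with Slc1a2 has 0.00.

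Slc1a2 moved with these 3 genes more loosely. It gave r = 0.43 (rho = 0.39) with Slc1a3, r = 0.39 (rho = 0.40) with Aqp4 and r = 0.38 (rho = 0.38) with Gja1, with permutation p of 4e-05, 0.00033 and 0.00079. Without the 2 farthest rats on either gene r lay between 0.30 and 0.46. In the order by r these genes stood between number 589 and number 1464 for each other, so that many genes were closer. The transporter pair Slc1a2 and Slc1a3 had a lower r than Slc1a3 with the connexin after batch and sex, but after 20 principal components the order was turned round, at 0.41 for the transporters (permutation p = 1e-04) and 0.19 for Slc1a3 with Gja1. The difference between these r was not tested.

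Gfap shared most with Aqp4, and its r with Slc1a2 was near 0. With Aqp4 it gave r = 0.65 and rho = 0.61 (permutation p = 1e-05), and r of 0.58 and 0.65 without the 2 rats farthest from the median of Gfap or of Aqp4. Aqp4 was number 34 in the order for Gfap. With Gja1 it gave r = 0.39 and rho = 0.32 (permutation p = 0.00078), and with Slc1a3 r = 0.32 and rho = 0.27 (permutation p = 0.00506). Without the 2 rats farthest on either gene these were 0.28 and 0.35 for Gja1 and 0.24 and 0.23 for Slc1a3. Both depended on single libraries. The limma call of Slc1a3 on Gfap (adjusted p = 0.0432) was lost when any one of 15 of the 80 libraries was left out, with adjusted p from 0.05 to 0.209, and that of Gja1 on Gfap (adjusted p = 0.00776) was lost without male replicate 15 of batch 4 (0.0859). Without that library r fell to 0.23 for Slc1a3 and to 0.30 for Gja1, and without batch 4 as a whole it was 0.06 and 0.15. With Slc1a2, r was 0.00 and rho 0.06 (permutation p = 0.999), and Slc1a2 was number 7386 of 14802 in its order, near the middle. Before batch was removed that r was -0.25. Its permutation p was 0.0263 with rats shuffled across batches, so that differences between batches enter it.

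**Figure D3:**
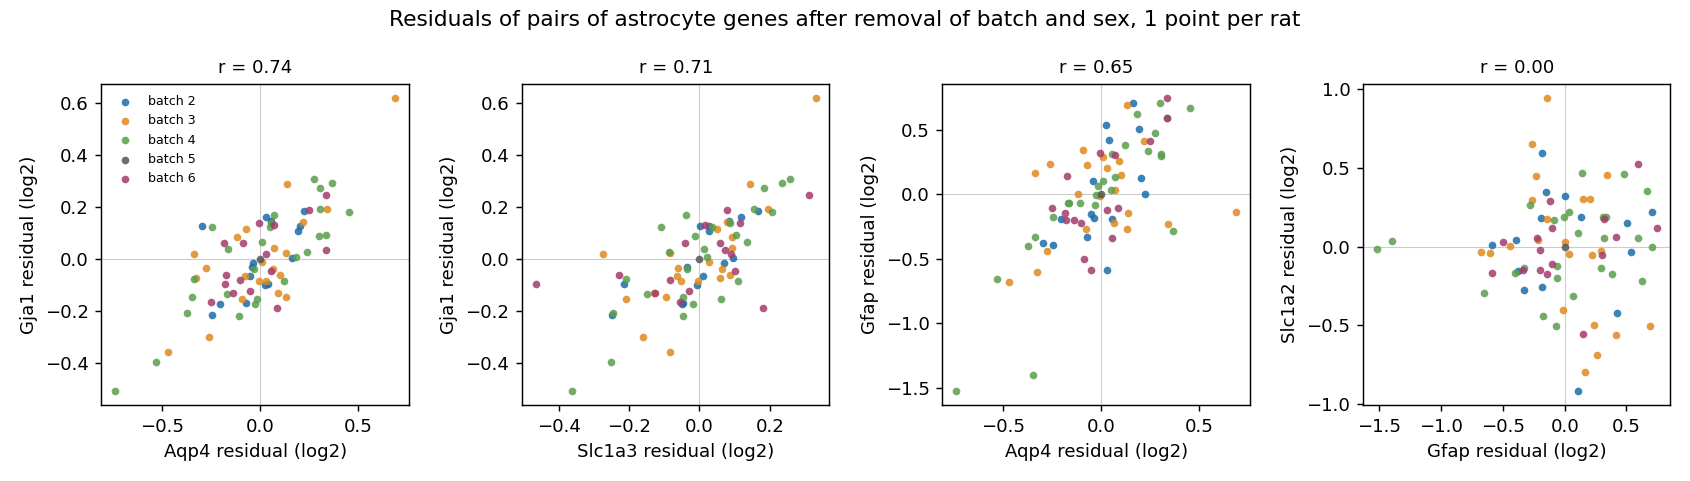
Log2 residuals after rat batch and sex of pairs of the genes, with one point per rat coloured by batch. The points of Aqp4 and Gja1 rise together (r = 0.74), whereas those of Gfap and Slc1a2 spread without a slope.

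Within single batches the group of 3 was positive everywhere. Slc1a3 with Gja1 gave r = 0.72 in batch 2 (n = 15) and 0.76 in batch 3 (n = 22). It gave 0.83 in batch 4 (n = 26) and 0.58 in batch 6 (n = 16), with permutation p between 1e-04 and 0.0152. Aqp4 with Slc1a3 gave 0.37, 0.72, 0.86 and 0.73 in the same order, and Aqp4 with Gja1 gave 0.46, 0.77, 0.86 and 0.61, where in batch 2 the permutation p were 0.181 and 0.0895. Gfap varied more. With Aqp4 it gave 0.48 in batch 2 (permutation p = 0.0659), 0.25 in batch 3 (0.258), 0.84 in batch 4 (1e-04) and 0.69 in batch 6 (0.0042). With Gja1 the values were -0.16, -0.01, 0.70 and 0.67, and with Slc1a3 they were -0.25, -0.18, 0.63 and 0.41. Gfap with Slc1a2 was -0.12, -0.31, 0.28 and 0.56 (permutation p = 0.0227 for the last). A difference in slope between batches was called for 0 of 20 ordered pairs by limma (lowest adjusted p = 0.19). The background was 0.0759% on Aqp4, 0.00584% on Slc1a3, 0.00584% on Gja1 and 0% on Gfap and Slc1a2. Of the 20, 8 had an unadjusted p under 0.05, of which 5 involved Gfap. The difference between batches in these r is therefore not shown. In the third column stretch alone (n = 46) the r of the group of 3 were 0.81, 0.81 and 0.72, and Gfap with Slc1a2 was 0.19.

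Single rats carried the ends of the ranges for several genes at once. Male replicate 20 of batch 3 was the highest of its batch for Aqp4 (8579), Slc1a2 (2083), Slc1a3 (16214) and Gja1 (8232), and for Gfap (3154) it stood at place 13 of 22. Male replicate 15 of batch 4 was the lowest of its batch for Aqp4 (3668), Slc1a3 (9911) and Gja1 (4015) and the next to lowest for Gfap (1061), while its Slc1a2 (1653) stood at place 11 of 26. Male replicate 7 of batch 6 was the highest of its batch for Gfap (3771), Aqp4 (6458), Slc1a3 (15272) and Gja1 (5900). The depths of these 3 libraries, in the unit given before, were 17.9, 20.7 and 21.6, near or above the mean. Female replicate 13 of batch 4 had the lowest Gfap of all, at 1060.

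**Figure D4:**
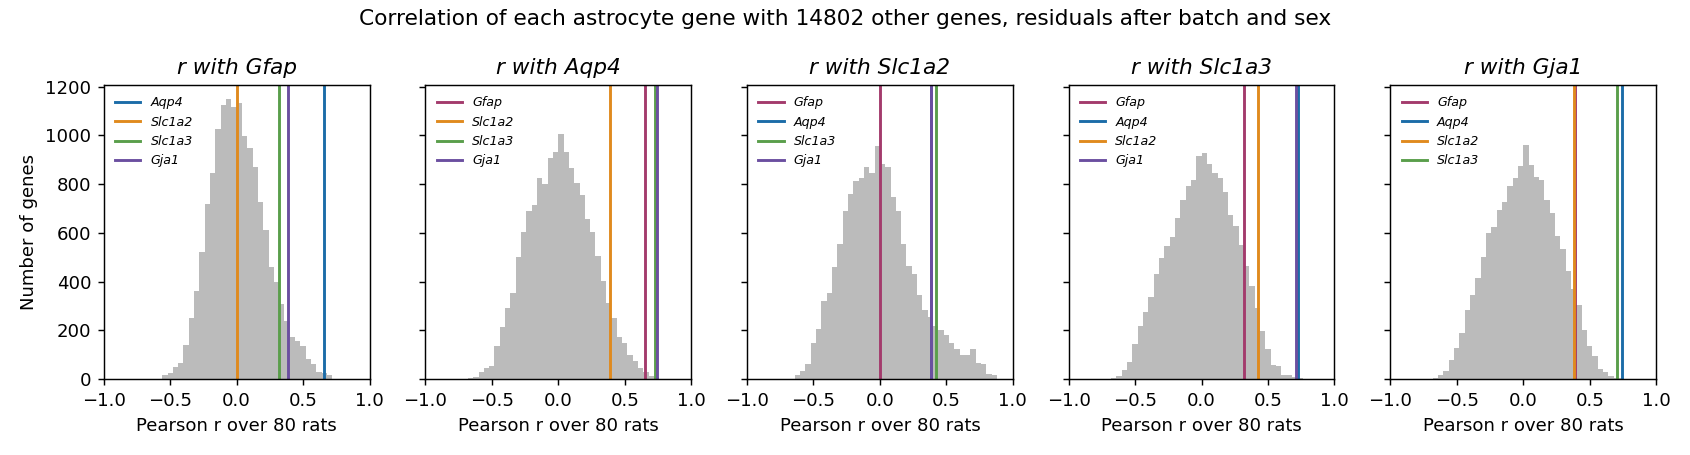
Distribution of Pearson r, after rat batch and sex, between each of the 5 genes and all other genes with a mean of at least 3, with the other 4 genes marked. Medians lie between -0.02 and 0.01, and the marks of Aqp4, Slc1a3 and Gja1 lie in the upper tail of one another.

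The genes most like each of the 5 were found by the same r over the 80 rats. Their names could not be matched, and they are given by identifier. For Slc1a2 the nearest was ENSRNOG00000013281 (r = 0.88), for Gja1 ENSRNOG00000036745 (r = 0.81), for Aqp4 ENSRNOG00000042848 (r = 0.80), for Gfap ENSRNOG00000003172 (r = 0.79) and for Slc1a3 ENSRNOG00000013683 (r = 0.74). The second nearest of Slc1a3 was ENSRNOG00000042848 (r = 0.74), the nearest of Aqp4, and the second nearest of Gja1 was Aqp4 itself. At the other end, ENSRNOG00000042086 was the lowest for Aqp4 (r = -0.71) and the second lowest for Slc1a3 (r = -0.68). An r over 0.6 was reached with Slc1a2 by 487 of 14802 genes (3.29%). With Aqp4 it was reached by 101 (0.682%), with Gfap by 77 (0.52%), with Gja1 by 54 (0.365%) and with Slc1a3 by 50 (0.338%). The widest company was thus that of GLT-1. The column stretch was not removed before these r were computed, and its part in the counts was not tested.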

How the data were processed

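RNA-Seq of polyadenylated RNA was analysed from 80 libraries. The labels describe 88 samples and mark 8 as removed by the study, which had no column and were not analysed here. All columns matched 1 sample each (0 were left over). According to the methods, cutadapt trimmed the single-end reads and RSEM aligned what was left to Ensembl rat transcripts. The authors adjusted the estimated counts by the upper quartile with DESeq2, dropped genes with few reads, added a pseudocount of 1 and deposited log2 values. The labels name the build Rnor_6.0. Normalised counts were obtained by inverting the log2, and were whole within a relative 3.98e-06. Depth was recovered from the step between occurring values, which stood clear of other steps (log-likelihood gap over 10) in 78 libraries.

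Linear models were fitted by limma 3.58.1 (R 4.3.3; lmFit, then eBayes including a mean trend) to the log2 values of all 17123 genes, and Benjamini-Hochberg adjustment over all genes at a threshold of 0.05. The batch test took the moderated F over batches 2, 3, 4 and 6, and sex was a covariate. The sex test used all libraries with batch, and batch pairs, the interaction of sex and batch and slopes on another member were fitted likewise. Log2 differences are on the log2(normalised count + 1) scale. Correlations used residuals after batch and sex, with 100000 permutations within batches. Within a batch and in the alternatives 10000 permutations were used (smallest p 1e-04). In alternatives that held several batches, rats were shuffled without regard to batch. Scripts ran under Python 3.11.15 with scipy 1.17.1, pandas 2.3.3, numpy 2.4.6 and matplotlib 3.10.9, and the models were tested on simulated data.

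The 5 genes, the gene lists and the tests were chosen with earlier results of these data known. Named were the 5 genes and, for each, up to 2 genes with the highest and 2 with the lowest r among genes with a mean of at least 3. Gene names of the 5 come with their identifiers and matched RefSeq (GRCr8) by symbol in 5 of 5. The RefSeq table held 0 Ensembl identifiers, so no other gene was named and the lists of other cell type markers were not applied. Replicate numbers follow accession order within a batch. Each library is from a separate rat. Alternatives covered the normalization, pseudocount, low-value filter, 20 principal components, column stretch, single sexes, single batches and left-out libraries.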

Additional observations from a re-analysis of the deposited data

How the results depend on the processing

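Each batch difference is on the log2 scale, between the batches with the highest and the lowest mean of that gene over all libraries. The same pair of batches is kept in each alternative, so the value is not a span over all batches. Every adjusted p is limma's, from the F test over batches. After 20 principal components, 0 of the 5 genes were called across batches (adjusted p from 0.518 to 0.884), where 0.00584% of all genes were. In this fit the differences between these pairs of batches were 0.17 (Gfap), 0.09 (Aqp4), 0.03 (Slc1a2), 0.08 (Slc1a3) and 0.13 (Gja1). The mapping of the study also used 20 expression components. It added genotype similarity to the founder strains and took rank-based inverse normal values, which this fit did not. With a column stretch term 3 genes were called, not Gfap (0.68, adjusted p = 0.0536) or Slc1a2 (0.23, 0.735). In males only 3 were called, not Gfap (0.50, 0.0674) or Gja1 (0.14, 0.506), and in females only 3, not Aqp4 (0.22, 0.218) or Slc1a3 (0.03, 0.987). The share of all genes called with the stretch term or in a single sex is not given here. These counts therefore have no background beside them, where in the main fit it was 64.7%. Of 13 alternatives for each gene, the batch call was kept in 10 for Gfap and in 11 for each of Aqp4, Slc1a2, Slc1a3 and Gja1. The sex difference stayed uncalled for each of the 5 genes in all 19 alternatives run, and its interaction with batch in all 3.

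Of the correlations of the 9 pairs other than Gfap and Slc1a2, 142 of 162 values kept their direction and a permutation p under 0.05. Gfap and Slc1a2, at 0.00, had no direction to keep and ran from -0.31 to 0.56. Within batch 2 they were 0.48 (Gfap and Aqp4), -0.25 (Gfap and Slc1a3, reversed), -0.16 (Gfap and Gja1, reversed), 0.07 (Aqp4 and Slc1a2), 0.37 (Aqp4 and Slc1a3), 0.46 (Aqp4 and Gja1), 0.26 (Slc1a2 and Slc1a3) and 0.08 (Slc1a2 and Gja1). Within batch 3 they were 0.25 (Gfap and Aqp4), -0.18 (Gfap and Slc1a3, reversed) and -0.01 (Gfap and Gja1, reversed), and within batch 6 0.56 (Gfap and Slc1a2, against 0.00), 0.41 (Gfap and Slc1a3) and 0.44 (Slc1a2 and Slc1a3), where fewer rats enter. Without batch removed Gfap and Slc1a2 gave -0.25. After 20 components the values were -0.06 (Gfap and Slc1a3, reversed), 0.21 (Gfap and Gja1), 0.18 (Aqp4 and Slc1a2), 0.18 (Slc1a2 and Gja1) and 0.19 (Slc1a3 and Gja1), and the SD fell to 0.27 for Gfap, 0.13 for Aqp4, 0.16 for Slc1a2, 0.09 for Slc1a3 and 0.12 for Gja1. Without batch 4 they were 0.06 (Gfap and Slc1a3) and 0.15 (Gfap and Gja1). The causes were not tested.

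Added after seeing the data were the fits inside a column stretch and of the stretch inside batch 3, the slopes by batch, the test of the depth slope, the correlations without a whole batch or in the third stretch only, and the fits that left out each library in turn. No paired analysis was made, because each of these libraries is from a separate rat. The replicate numbers follow accession order and link none of these libraries to another. Other brain regions of the rats, which the study also sampled, were not used here.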
